A study of Mus musculus with 10 samples.

Results

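The genes described are 33 genes listed by name for their place in neutrophil formation: the growth factor and regulators that drive it, the proteins stored in the granules of successive stages, proteins of the cytosol and of late cells, and receptors on the cell surface. Probes were taken by gene name or transcript accession. Of the 33 genes, 31 had a probe and all 31 were tested, through 39 of the 38629 probes tested on the arrays. They stand among 18955 genes tested in all. For Cebpe, a transcription factor of late granulopoiesis, and Ly6g, a surface antigen that marks mouse neutrophils, no probe was found by this rule, and both are not analysed here.

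Total RNA of the femur was hybridised to Agilent one-colour arrays, with 1 animal per array. The 5 unloaded mice were male ICR mice aged 6 months whose tails were fixed to an overhead line, which kept weight off the hindlimbs for 24 h in a head-down tilt. The 5 control mice were male ICR mice of the same age that walked freely, and all 10 animals were housed singly before assignment. Body weights lay between 25.5 and 29.3 g in unloaded mice and between 26.9 and 31.3 g in control mice. The tissue is whole femur, in which bone, marrow and any attached tissue are read together, so fewer neutrophils and less RNA per neutrophil cannot be told apart.

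Neutrophils are made in the bone marrow from myeloblasts and promyelocytes. Granule proteins are made in waves: azurophil granules are filled at the promyelocyte stage, specific and gelatinase granules later, and receptors of the mature cell appear last. Granulocyte colony-stimulating factor, acting through its receptor, drives this production and the release of mature cells, and the marrow holds a large reserve of them.

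Of the 3 slides, slide 2 carried unloaded 1, 2 and 3 with control 5, slide 3 carried unloaded 4 and 5, and slide 1 carried the other controls, so slide largely follows group. The 75th percentile of an array lay between 636.5 and 903.3 intensity units, and between 89.8% and 95.5% of its spots were well above background. Unloaded 5 stood apart from the rest, with a median correlation of 0.974 to the other arrays, where the others had 0.984 to 0.987. Signals below are log2 values relative to the 75th percentile of the array, differences are unloaded minus control, and errors are SDs over 5 animals unless stated. Of the 8 defining neutrophil markers 7 had a probe (Elane, Mpo, Ltf, Camp, Ngp, S100a8 and S100a9), and all 7 were well above background on every array that measured them, as were all 31 genes tested and all 10 bone cell markers.

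No member passed the test at 24 h. Under limma with Benjamini-Hochberg adjustment over all probes, 0 of 31 members were called, with adjusted p-values between 0.234 and 0.996, where 1 of 18955 genes was called (0.00528%, or 0.00259% of probes). At an unadjusted p below 0.05, 3 members were higher (Stfa1, Stfa2 and Fcnb) and 2 lower (Csf3r and Gfi1), against 9.9% of all genes higher and 5.87% lower (15.8% together). Differences were positive for 17 members and negative for 14, with a median of 0.01, but the split depends on the scaling. With median scaling 9 were positive and the members' median was -0.08, with quantile normalization 12 and -0.02, and with slide as a fixed block 7 and -0.14. Over all genes 60.4% were positive and the median was 0.05. The median spread between animals of a group was 0.25 for the members, against 0.19 for all genes. The largest differences belonged to a few genes, described below by class.

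**Figure D1:**
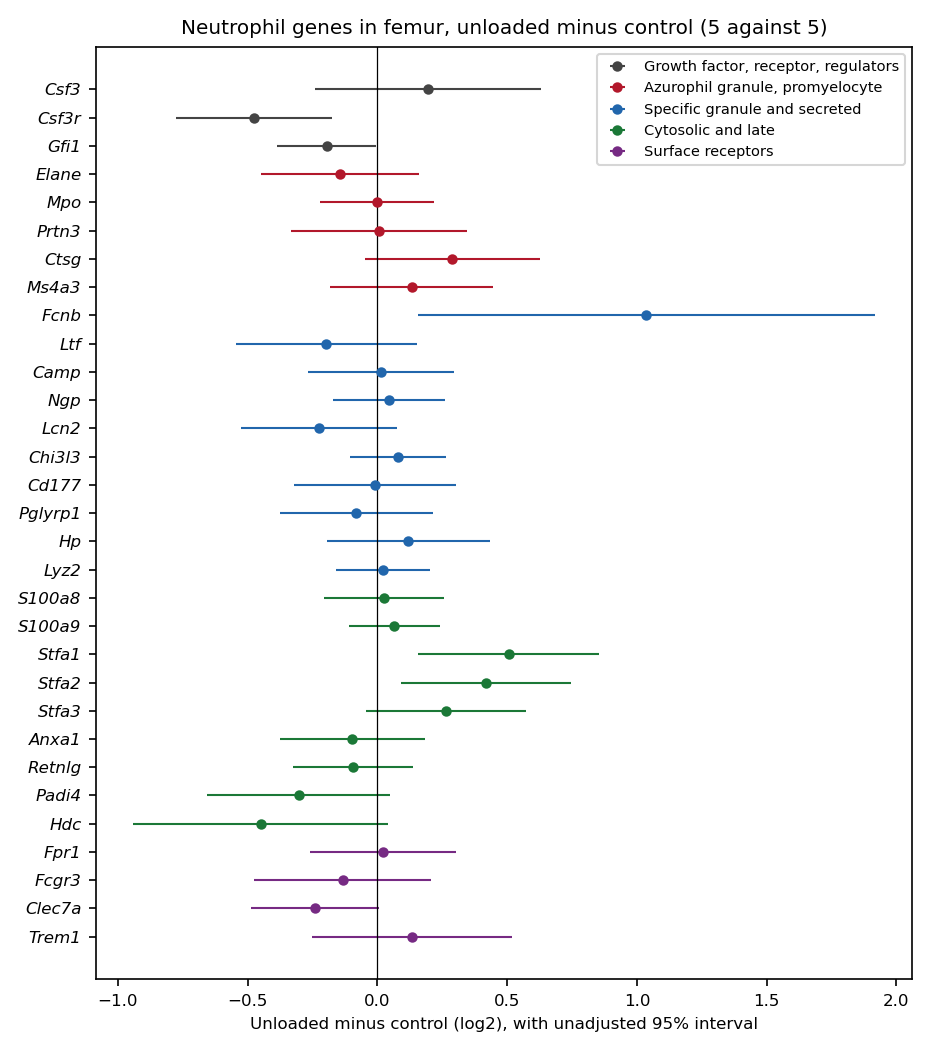
Log2 difference of 31 neutrophil genes between unloaded and control femurs (5 animals each, 4 unloaded for Ltf), with unadjusted 95% intervals from limma, ordered and coloured by class. Fcnb lies farthest right at 1.04, Csf3r farthest left at -0.48, and most intervals cross 0.

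Of the growth factor, its receptor and the regulators, the receptor was lower in every unloaded animal. Csf3r, the receptor for granulocyte colony-stimulating factor, had 0.93, 0.95, 0.90, 0.96 and 0.35 in unloaded mice 1 to 5, against 1.00, 1.49, 1.51, 1.19 and 1.27 in control mice 1 to 5. The groups did not overlap, although unloaded 4 and control 1 lay close together. Whether the groups stay apart under another scaling was not tested. The difference was -0.48 (SE 0.14, 95% interval -0.78 to -0.18), which is 1.39-fold lower, and it did not pass the test (limma adjusted p = 0.234). Without unloaded 5, the lowest animal, it was -0.36, and on slide 2, which holds 3 unloaded arrays and a single control, it was -0.34.

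Gfi1, a transcriptional repressor needed for neutrophil maturation, was the other member whose groups did not overlap. Its signal was 0.78, 0.73, 0.78, 0.78 and 0.59 in unloaded mice, against 0.81, 0.92, 0.99, 0.84 and 1.07 in control mice. The groups were separated by a narrow gap, and whether they stay apart under another scaling was not tested. The difference was -0.20 (SE 0.09, limma adjusted p = 0.307). On slide 2 it was -0.31. Among all genes 3.3% had groups that did not overlap, 1.5% higher and 1.8% lower; among the 31 members none was higher and 2 were lower.

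Csf3, the gene of granulocyte colony-stimulating factor itself, varied more between animals of a group than 95% of tested probes. It had -1.998, -2.225, -1.908, -1.996 and -1.500 in unloaded mice, against -2.25, -2.53, -2.46, -1.34 and -2.02 in control mice. Control 4 was the highest of all 10 animals and the groups overlapped. The difference was 0.20 (SE 0.20, 95% interval -0.24 to 0.63, limma adjusted p = 0.606). Without control 4 it was 0.39 (limma adjusted p = 0.325), with an unadjusted p of 0.0235, and without unloaded 5 it was 0.09.

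**Figure D2:**
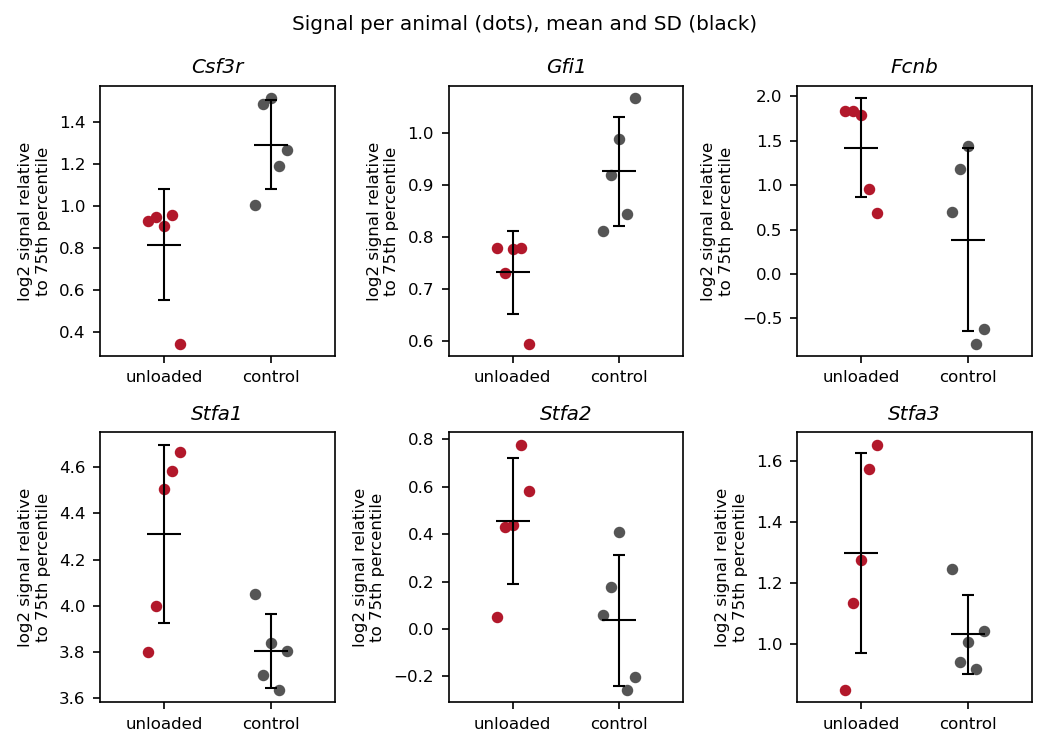
Log2 signal relative to the 75th percentile of the array for 6 neutrophil genes, with 1 dot per animal, unloaded left of control, and the mean and SD in black. Csf3r and Gfi1 do not overlap between the groups, while Fcnb and the stefins do.

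The azurophil granule and promyelocyte genes had a median difference of 0.01, and none of the 5 differed at an unadjusted p below 0.05. Mpo, the peroxidase that makes hypochlorous acid, averaged 7.45 ± 0.13 in unloaded and 7.45 ± 0.15 in control mice, with a 95% interval of the difference from -0.22 to 0.22. Elane, neutrophil elastase, had 2.13, 2.49, 2.36, 2.48 and 2.09 in unloaded mice, against 2.34, 2.53, 2.81, 2.03 and 2.58 in control mice. The unloaded animals lay within the range of the controls, and the difference was -0.15 (SE 0.14). Prtn3, proteinase 3, averaged 1.22 ± 0.14 in unloaded and 1.21 ± 0.38 in control mice. Ms4a3, a membrane protein of granulocyte and monocyte progenitors, averaged 3.14 ± 0.07 in unloaded and 3.01 ± 0.36 in control mice.

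Ctsg, the serine protease cathepsin G, had the largest difference of this class, at 0.29 (SE 0.16, limma adjusted p = 0.356). It had 5.39, 5.24, 5.67, 5.41 and 5.85 in unloaded mice, against 5.04, 5.32, 5.39, 4.78 and 5.59 in control mice. Only 2 unloaded animals lay above all controls. Elane, Prtn3, Ctsg and Ms4a3 each had their lowest value in control 4.

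Of the 10 genes of specific granules and secreted proteins, 6 differences were positive and 4 negative, with a median of 0.02, and 1 was higher at an unadjusted p below 0.05. That gene was Fcnb, ficolin B, a lectin of the complement system made by immature myeloid cells. It had 1.83, 1.84, 1.80, 0.96 and 0.68 in unloaded mice, against 0.70, 1.19, 1.44, -0.78 and -0.62 in control mice. Its values formed a high group of 3 unloaded animals and a low pair of controls, with the rest between, so the groups overlapped. The 3 high animals were the unloaded arrays of slide 2. Unloaded 4 and 5, on slide 3, lay within the range of the controls on slide 1. The difference was 1.04 (SE 0.41, 95% interval 0.16 to 1.92), which is 2.05-fold higher, with a limma adjusted p of 0.274. Its spread between animals was wider than that of 99.9% of tested probes. Without control 4 the difference was 0.75 and without control 5 it was 0.79, while on slide 2, where control 5 is the sole control, it was 2.44.

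Ltf, the iron-binding protein lactoferrin, had 6.35, 6.47, 6.47 and 5.67 in unloaded mice 1, 2, 4 and 5, its spot on unloaded 3 having been left out as an outlier by the scanner software. Control mice had 6.23, 6.59, 6.45, 6.37 and 6.55. The difference of -0.20 (SE 0.16, n = 4 unloaded) became -0.01 without unloaded 5. A second Ltf probe, measured on all arrays, gave -0.13 (SE 0.15).

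Camp, the cathelicidin precursor, averaged 5.95 ± 0.23 in unloaded and 5.93 ± 0.21 in control mice. Ngp, neutrophilic granule protein, averaged 6.05 ± 0.13 in unloaded and 6.00 ± 0.14 in control mice. Chi3l3, the chitinase-like protein now called Chil3, averaged 7.28 ± 0.07 in unloaded and 7.20 ± 0.09 in control mice. These 3 differences were smaller than the standard error of the fit, and the groups overlapped. Lcn2, the siderophore-binding lipocalin, averaged 2.64 ± 0.20 in unloaded and 2.86 ± 0.27 in control mice, a difference of -0.23 (SE 0.14). Pglyrp1, a bactericidal peptidoglycan-binding protein, differed by -0.08 (SE 0.14), and Cd177, a surface and granule glycoprotein, by -0.01 (SE 0.15). Hp, the haemoglobin-binding protein haptoglobin, differed by 0.12 (SE 0.15). For Lcn2, Pglyrp1 and Cd177 the lowest animal of all was unloaded 5.

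Lyz2, lysozyme of myeloid cells, was measured by a pair of probes that disagreed. The brighter probe averaged 7.24 ± 0.08 in unloaded and 7.22 ± 0.07 in control mice, a difference of 0.02. The dimmer averaged 2.60 ± 0.33 in unloaded and 3.01 ± 0.38 in control mice, a difference of -0.40 (SE 0.19, limma adjusted p = 0.312). The sign for Lyz2 thus depends on the probe, and neither probe passed the test.

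Of the 9 cytosolic and late genes, 5 differences were positive and 4 negative, with a median of 0.03. The products of S100a8 and S100a9 form the calcium-binding heterodimer calprotectin, and both genes differed by less than the standard error of the fit. S100a9 had 8.31, 8.31, 8.28, 8.36 and 8.36 in unloaded mice, against 8.20, 8.18, 8.26, 8.28 and 8.36 in control mice. All 10 animals lay within a 1.13-fold range, and its spread within groups was narrower than that of all but 0.3% of tested probes. The difference was 0.07 (SE 0.08, 95% interval -0.11 to 0.24). S100a8 averaged 6.54 ± 0.16 in unloaded and 6.52 ± 0.15 in control mice.

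The 3 stefin genes measured, Stfa1, Stfa2 and Stfa3, which encode small inhibitors of cysteine proteases, were all higher on average in unloaded mice, under each scaling tried. Stfa1 had 3.80, 4.00, 4.51, 4.58 and 4.67 in unloaded mice, against 4.05, 3.70, 3.84, 3.64 and 3.80 in control mice. Unloaded 3, 4 and 5 lay above all controls, and unloaded 1 and 2 lay among them. The difference was 0.51 (SE 0.16, 95% interval 0.16 to 0.86), which is 1.42-fold higher, with a limma adjusted p of 0.248. Its other probes gave 0.47 (SE 0.18) and 0.42 (SE 0.17).

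Stfa2 had 0.05, 0.43, 0.44, 0.78 and 0.58 in unloaded mice, against 0.06, 0.18, 0.41, -0.26 and -0.20 in control mice. All unloaded animals but unloaded 1 lay above every control, and the difference was 0.42 (SE 0.15, limma adjusted p = 0.258). Stfa3 had 0.85, 1.14, 1.28, 1.58 and 1.65 in unloaded mice, against 1.25, 0.94, 1.01, 0.92 and 1.04 in control mice. Unloaded 1 was the lowest and unloaded 5 the highest of all animals, and the difference was 0.27 (SE 0.14, limma adjusted p = 0.354). On slide 2 the differences were 0.30 for Stfa1, 0.51 for Stfa2 and 0.04 for Stfa3. RefSeq lists further stefin genes beside these, and how far a probe reads its neighbours was not tested, so the stefins may not be independent measurements.

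The promoters of the stefins show how alike these neighbouring genes are, and those of Csf3r and Fcnb are set beside them because these genes had the lowest and highest differences. The sequences are from RefSeq (GRCm38.p6), 250 bases before to 50 after the start of the gene, and capitals mark matches on either strand to TTNNGNAA, a C/EBP motif, or to GAGGAAG, a PU.1 motif. C/EBP factors and PU.1 are transcription factors of myeloid cells. The windows lie at chr16:36276898-36277197 on the plus strand for Stfa1, chr16:36408314-36408613 on the minus strand for Stfa2, chr16:36455343-36455642 on the minus strand for Stfa3, chr4:126024409-126024708 on the plus strand for Csf3r and chr2:28084829-28085128 on the minus strand for Fcnb.
Stfa1: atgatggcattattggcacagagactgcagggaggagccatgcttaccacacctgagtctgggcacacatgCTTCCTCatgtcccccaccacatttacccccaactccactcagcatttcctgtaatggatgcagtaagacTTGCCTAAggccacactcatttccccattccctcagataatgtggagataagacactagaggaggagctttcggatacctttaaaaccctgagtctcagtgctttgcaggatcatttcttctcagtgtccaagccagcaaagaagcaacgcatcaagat
Stfa2: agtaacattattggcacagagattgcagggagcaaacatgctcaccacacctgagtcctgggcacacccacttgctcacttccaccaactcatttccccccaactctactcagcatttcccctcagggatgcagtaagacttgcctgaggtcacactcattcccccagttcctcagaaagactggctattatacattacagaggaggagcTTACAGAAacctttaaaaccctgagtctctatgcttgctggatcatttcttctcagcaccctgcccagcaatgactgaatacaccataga
Stfa3: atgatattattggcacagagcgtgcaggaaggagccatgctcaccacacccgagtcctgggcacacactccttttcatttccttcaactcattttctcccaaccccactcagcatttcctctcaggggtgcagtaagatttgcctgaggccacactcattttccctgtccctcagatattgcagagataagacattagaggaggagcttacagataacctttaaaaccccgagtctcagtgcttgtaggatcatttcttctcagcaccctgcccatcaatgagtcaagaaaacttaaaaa
Csf3r: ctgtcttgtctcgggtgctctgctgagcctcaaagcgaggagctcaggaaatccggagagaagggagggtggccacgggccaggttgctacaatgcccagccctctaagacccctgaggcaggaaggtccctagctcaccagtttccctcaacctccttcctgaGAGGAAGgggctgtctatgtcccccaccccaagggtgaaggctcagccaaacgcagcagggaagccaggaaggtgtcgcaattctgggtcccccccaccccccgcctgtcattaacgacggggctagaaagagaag
Fcnb: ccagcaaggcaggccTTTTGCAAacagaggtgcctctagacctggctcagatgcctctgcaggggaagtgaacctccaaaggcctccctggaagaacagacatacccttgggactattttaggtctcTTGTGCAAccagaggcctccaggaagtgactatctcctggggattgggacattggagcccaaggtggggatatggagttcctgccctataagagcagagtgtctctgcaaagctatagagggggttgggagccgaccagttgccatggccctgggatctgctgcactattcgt

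Aligned bases were identical at 81.1% between Stfa1 and Stfa2, at 82.8% between Stfa1 and Stfa3 and at 82.5% between Stfa2 and Stfa3. Despite this likeness, the C/EBP letters of Stfa1 and Stfa2 lie at different places and Stfa3 has none. Fcnb has 2 C/EBP matches and Csf3r has 1 PU.1 match. Shares were counted over the first listed promoter of each gene. Of the 30 member genes in the table, counting Ly6g, which had no probe, 63.3% held the C/EBP motif, against 40.7% of 27025 genes, and 36.7% held the PU.1 motif, against 13.5%. The STAT motif TTCNNNGAA was in 10.0% of the members' promoters, against 8.47% of all genes. AGAACA, which is only a part of the glucocorticoid receptor motif, was in 16.7%, against 19.0%. A match describes letters in the window and is no measure of binding.

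The other 4 cytosolic and late genes all had negative differences. Hdc, histidine decarboxylase, which makes histamine, had 2.15, 1.46, 1.02, 1.29 and 1.48 in unloaded mice, against 2.26, 2.42, 1.20, 1.84 and 1.93 in control mice. The groups overlapped widely, and the difference was -0.45 (SE 0.23, limma adjusted p = 0.335). Padi4, the enzyme that citrullinates histones, had 2.80, 1.98, 2.64, 2.40 and 1.90 in unloaded mice, against 2.49, 2.73, 2.71, 2.50 and 2.80 in control mice. Unloaded 2, 4 and 5 lay below all controls, the difference was -0.30 (SE 0.16), and its other probes gave -0.40 and -0.14. Without unloaded 5 the Padi4 difference was -0.19, and with array weights, which count that array least, it was -0.14. Anxa1, the calcium-dependent phospholipid-binding protein annexin A1, differed by -0.10 (SE 0.13), and Retnlg, a secreted protein of the resistin family, by -0.09 (SE 0.11).

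The 4 surface receptors had a median difference of -0.06. Clec7a, the beta-glucan receptor dectin-1, had 1.63, 1.75, 1.75, 1.70 and 1.64 in unloaded mice, against 1.74, 2.11, 2.09, 1.61 and 2.13 in control mice. Controls 2, 3 and 5 lay above all unloaded animals, and the difference was -0.24 (SE 0.12, limma adjusted p = 0.318). Fcgr3, a low-affinity receptor for immunoglobulin G, differed by -0.13 (SE 0.16), and by -0.05 on its other probe. Fpr1, the receptor for formylated peptides, averaged 1.99 ± 0.26 in unloaded and 1.97 ± 0.16 in control mice. Trem1, an amplifier of inflammatory signalling, differed by 0.14 (SE 0.18), and by 0.05 on its other probe.

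**Figure D3:**
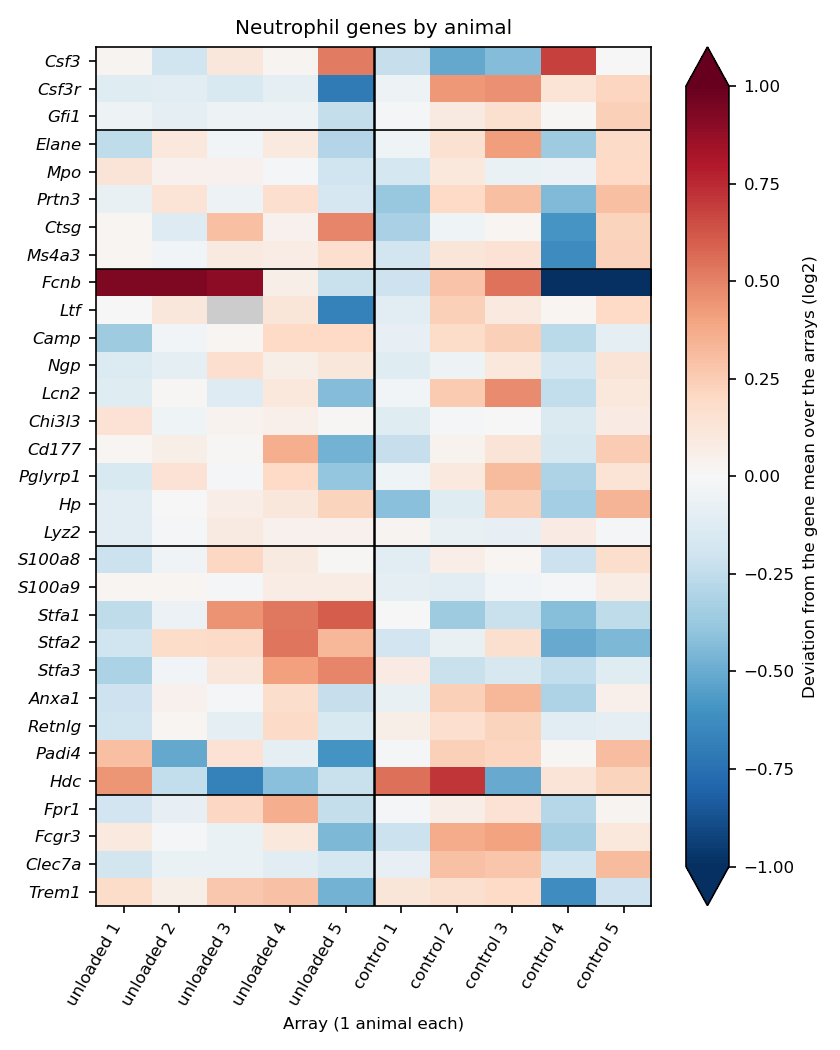
Deviation of each neutrophil gene from its mean over the arrays (log2, colours end at -1 and 1), with genes in rows by class and animals in columns, unloaded left of control. The grey cell is the Ltf spot left out on unloaded 3; control 4 is blue in most rows and red for Csf3, and the stefins are red in unloaded 3, 4 and 5.

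Much of the variation of these genes lay between animals within a group. Of the 30 members measured on all arrays, control 4 had the lowest value for 14, or 46.7%, while it was lowest for 9.36% of all genes. Unloaded 5 was lowest for 8 members, or 26.7%, against 22% of all genes. Highest values fell to control 3 for 9 members, or 30.0%, against 12.3% of all genes, and to control 5 for 7 members, or 23.3%, against 8.89%. In control 4 the genes of a class lay below their means over the arrays by an average of -0.42 for azurophil, -0.32 for specific granule, -0.19 for late and -0.36 for receptor genes. Csf3 was highest in that animal, and the average of the regulators there was 0.28. Averaged over all 31 members, animals lay between -0.10 and 0.12 in unloaded mice and between -0.25 and 0.13 in control mice. Without control 4, the members' median difference was -0.05 and 11 of 31 were positive.

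**Figure D4:**
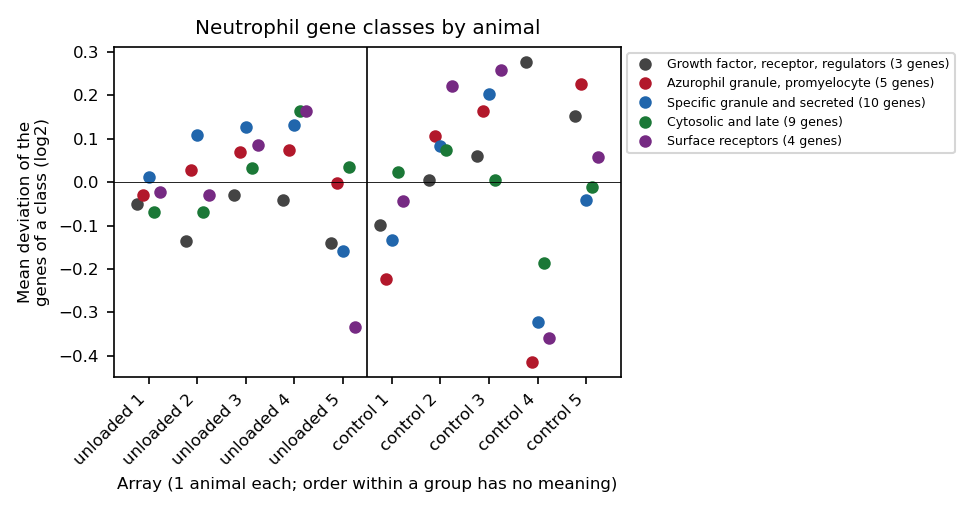
Mean deviation of the genes of each class from their means over the arrays (log2), 1 dot per class and animal, unloaded left of control. Control 4 is lowest in 4 of the 5 classes, down to -0.42 for azurophil genes, and unloaded 5 reaches -0.33 for receptors.

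Pairs of members were compared across animals to see whether genes of one granule moved together. Elane and Mpo, both azurophil, gave r = 0.288 over 10 animals (two-sided permutation p = 0.418, 0.723 adjusted over the 4 pairs) and rho = 0.358 (permutation p = 0.314). Mpo lay within a 1.32-fold range over these animals, which limits what r can show for this pair. Without the 2 animals farthest from the median of Elane r was 0.5, and for deviations from group means it was 0.302 and from slide means 0.34. Ltf and Camp, both of specific granules, gave r = -0.125 over 9 animals (exact permutation p = 0.799, adjusted 0.799) and rho = 0.067 (exact permutation p = 0.88), but r = 0.652 without unloaded 5 and control 1. Within groups it was -0.125 and within slides 0.312. No relation within a granule type passed the test.

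S100a8 and S100a9 gave r = 0.218 over 10 animals (permutation p = 0.542, adjusted 0.723) and rho = 0.127 (permutation p = 0.733). Because S100a9 lay within a 1.13-fold range over all animals, a low r cannot tell whether these genes move together. Without the 2 farthest animals r was 0.379, within groups 0.201 and within slides -0.153. The largest r, between the azurophil gene Elane and the specific granule gene Ltf, was 0.591 over 9 animals (exact permutation p = 0.0803, adjusted 0.321), with rho = 0.683 (exact permutation p = 0.0503). It was 0.547 without the 2 farthest animals, 0.536 within groups and 0.587 within slides. None of the 4 pairs passed after adjustment.

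The wider pathway was read from further lists. Of all genes, 9.9% were higher and 5.87% lower at an unadjusted p below 0.05. The groups lay apart in 1.5% of all genes with unloaded higher and in 1.8% with unloaded lower. Of 30 further genes listed for neutrophils, 0 were called, 1 was higher and 1 lower at an unadjusted p below 0.05, and their median was -0.004. Both named genes encode chains of cytochrome b558, the membrane part of the NADPH oxidase, and they differed in opposite directions. Cybb had 2.55, 2.40, 2.46, 2.46 and 2.20 in unloaded mice, against 2.85, 3.097, 2.82, 2.70 and 2.60 in control mice, without overlap. Its difference was -0.40 (SE 0.11, limma adjusted p = 0.218), with the same sign on both probes. The separation of its groups was not tested under another scaling. Cyba averaged 2.88 ± 0.23 in unloaded and 2.51 ± 0.31 in control mice, a difference of 0.36 (SE 0.15, limma adjusted p = 0.286) with overlap.

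Of 20 transcription factors of granulopoiesis, 0 were called. At an unadjusted p below 0.05, 1 was higher and 2 lower, against 9.9% and 5.87% of all genes. Cebpb, which drives granulopoiesis in emergencies, had 3.38, 2.98, 3.52, 3.16 and 3.90 in unloaded mice, against 2.90, 3.01, 2.80, 3.00 and 2.92 in control mice. All unloaded animals but unloaded 2 lay above every control, and the difference was 0.46 (SE 0.15, limma adjusted p = 0.245). Myb, a factor of immature progenitors, averaged 2.53 ± 0.17 in unloaded and 2.86 ± 0.13 in control mice, with the same sign on 3 of 4 probes. Cux1, a repressor of late myeloid genes, differed by -0.42 (SE 0.13), with the same sign on only 2 of 4 probes.

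Of 19 genes of neutrophil retention and release, 0 were called. At an unadjusted p below 0.05, 2 were higher and 2 lower, against 9.9% and 5.87% of all genes. Il6, a cytokine that can stimulate granulopoiesis, had -2.76, -3.12, -2.77, -2.91 and -2.70 in unloaded mice, against -3.30, -3.24, -3.36, -3.17 and -3.25 in control mice. Every unloaded animal lay above all controls, as in 1.5% of all genes, and the difference was 0.41 (SE 0.10, limma adjusted p = 0.218). Il6 was among the dimmest of the 19 genes, of which 16 were well above background on every array that measured them. Whether its groups stay apart under another scaling was not tested. Cxcl1, a chemokine that draws neutrophils, averaged -0.61 ± 0.28 in unloaded and -0.97 ± 0.15 in control mice. Stat3, which carries the signal of the granulocyte colony-stimulating factor receptor, differed by -0.31 (SE 0.12), with the opposite sign on its other probe.

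**Figure D5:**
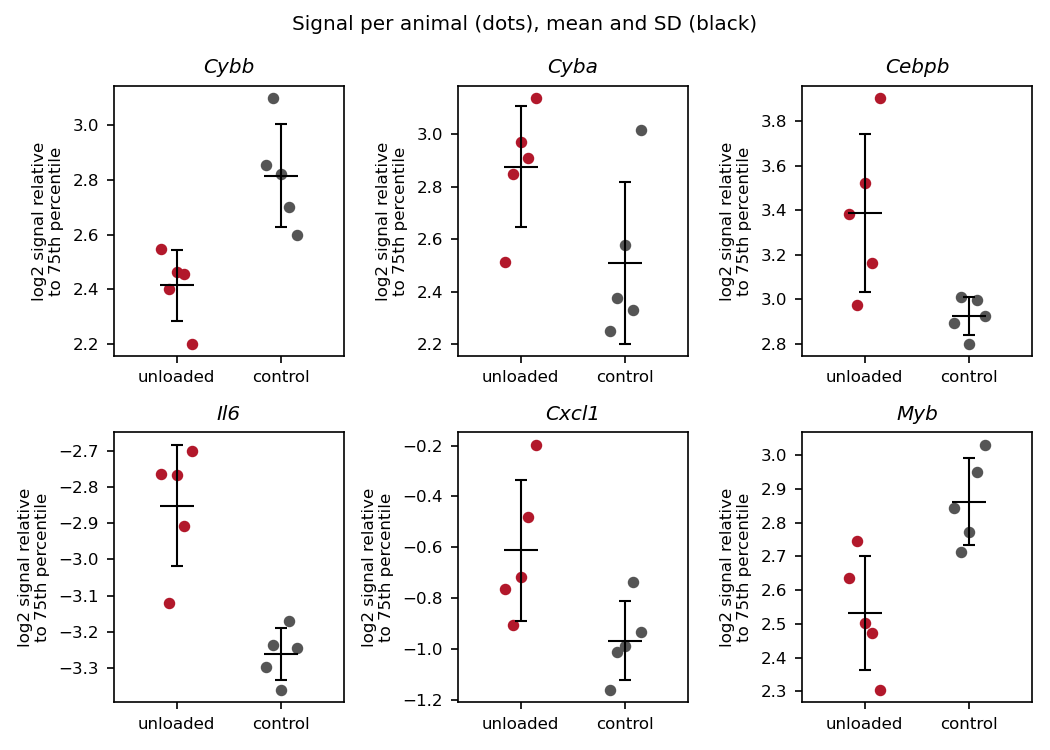
Log2 signal relative to the 75th percentile of the array for 6 related genes, with 1 dot per animal, unloaded left of control, and the mean and SD in black. Cybb is lower and Il6 higher in every unloaded animal, and the other genes overlap.

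Markers of other cells present in femur were read the same way, and none was called. Csf3r and Cybb are also expressed by monocytes, and 8 of 10 monocyte or macrophage markers had a negative difference, with a median of -0.12. At an unadjusted p below 0.05, 4 of the 10 were lower and 1 higher, against 5.87% and 9.9% of all genes. Cx3cr1, a chemokine receptor, differed by -0.97 (SE 0.26), Ccr2, the receptor that brings monocytes out of the marrow, by -0.30 (SE 0.095) without overlap, and Mpeg1, a pore-forming protein of macrophages, by -0.37 (SE 0.16), with limma adjusted p-values of 0.218, 0.244 and 0.291. For each of these, only 1 of 2 probes had that sign. The separation of the Ccr2 groups was not tested under another scaling. Mrc1 at -0.27 and Msr1 at 0.24 were the others, named after their values were seen. Linear levels of the 10 monocyte or macrophage markers, relative to the 75th percentile, were also summed. The sums lay between 30.7 and 43.3 in unloaded mice and between 39.3 and 52.9 in control mice. Mpeg1, the brightest of the 10, weighs most in them, at 4.235 ± 0.288 in unloaded and 4.606 ± 0.285 in control mice. B cell markers were negative for 8 of 10, and 2 were lower at that p, Ebf1 at -0.35 and Rag1 at -0.38, with sums between 78.5 and 99.99 in unloaded mice and between 87.5 and 117.9 in control mice. All of these markers were well above background on every array, and their part in the values of Csf3r and Cybb was not tested. The median difference was -0.16 for 9 erythroid, 0.01 for 10 eosinophil, basophil or mast cell and 0.13 for 9 T or NK cell markers. It was 0.07 for 10 bone cell and -0.16 for 10 skeletal muscle markers. Muscle markers varied most between animals of a group, with a median spread of 0.53 against 0.19 for all genes. Of the genes in these lists, Klrb1c at 0.33 and Cd3g at 0.23 (T or NK cell) and Mb at -0.53 (muscle) passed an unadjusted p of 0.05. For Klrb1c only 1 of 2 probes had that sign.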

How the data were processed

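Femur RNA of 5 unloaded and 5 control mice was measured on 10 one-colour arrays. The deposited files hold linear spot intensity, read by the authors with Agilent Feature Extraction 9.1.3.1, per the file headers, and not scaled between arrays. The deposited series matrix holds the same intensity rounded (ratios 0.995 to 1.005), uncentred, with column medians of 315, 269, 253, 311 and 291 in unloaded mice 1 to 5 and 335, 332, 303, 261 and 306 in control mice 1 to 5.

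Spots flagged as outliers (97 over all arrays) were dropped and spots of a probe averaged as log2 processed signal minus the 75th percentile of the array. A probe was tested when well above background on at least 4 arrays in either group, with at least 3 measured values in both. Probes were named through RefSeq (GRCm38.p6), 22951 by accession, 3109 by an older name and 6659 by a current name, and 8455 kept the file's name. The brightest tested probe stood for a gene. The comparison used limma 3.58.1 (R 4.3.3), two-sided, adjusted by Benjamini-Hochberg over all probes and called below 0.05. Correlations used 100000 permutations, or all of them for 9 animals. Figures were drawn with matplotlib 3.10.9. The fit was tested on simulated data. The number of arrays limits the precision.

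The genes and lists were chosen with earlier results of these data known. Every listed gene is named; of each further list up to 3 genes could be named, by smallest p. Alternatives covered scaling, background, filter, source of values, array weights, variance model, body weight, slide, replicate number, probe choice and each array left out.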

Additional observations from a re-analysis of the deposited data

Results flagged for a closer look

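Among 62 sets of values, a gene in a group each, 3 held an animal far from the others of its group, where chance gives about 1 in 20, and all 3 were unloaded 5, the array that stood apart. Csf3r was 0.35 in unloaded 5, where the nearest other unloaded animal had 0.90; without it the difference was -0.36 (SE 0.11, limma adjusted p = 0.342) and the groups still did not overlap. Gfi1 was 0.59 in unloaded 5, with 0.73 the nearest; without it the difference was -0.16 (limma adjusted p = 0.49). Ltf was 5.67 in unloaded 5, with 6.35 the nearest; without it the difference was -0.01 (limma adjusted p = 0.98).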

How the results depend on the processing

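No member was called in any alternative run. Csf3r (-0.57 to -0.34), Gfi1 (-0.31 to -0.14), Fcnb (0.75 to 2.44), Stfa1 (0.30 to 0.63), Stfa2 (0.32 to 0.52) and Stfa3 (0.04 to 0.38) kept their sign in all of them, as did Ltf, Anxa1, Lcn2, Padi4, Elane, Fcgr3, Clec7a and Hdc. The other 17 turned sign somewhere, and the cause was not tested. The sign turned with median scaling in S100a9 (-0.030), Chi3l3 (-0.015), Lyz2 (-0.073), S100a8 (-0.070), Ngp (-0.049), Camp (-0.081), Fpr1 (-0.073) and Prtn3 (-0.089); with quantile normalization in S100a9 (-0.081), Chi3l3 (-0.011), Lyz2 (-0.053), S100a8 (-0.017), Ngp (-0.001), Camp (-0.038) and Cd177 (0.057); with slide as a fixed block, where slide 2 and its single control alone inform the value in S100a9 (-0.066), Chi3l3 (-0.038), S100a8 (-0.19), Ngp (-0.15), Camp (-0.022), Hp (-0.35), Ctsg (-0.15), Retnlg (0.009), Ms4a3 (-0.20), Fpr1 (-0.049), Prtn3 (-0.30) and Csf3 (-0.024). It also turned with array weights in Mpo (0.042), Camp (-0.014) and Cd177 (0.092), with body weight as a covariate in Mpo (0.005), Pglyrp1 (0.022) and Cd177 (0.094), with normexp background correction in Mpo (0.011) and Cd177 (0.003), with the series matrix in Mpo (0.003), with slide as a random block (correlation -0.0314) in Mpo (0.007) and Cd177 (0.001), with the mean of all probes in Lyz2 (-0.19). With each array left out in turn it turned in Prtn3 (-0.10 to 0.082), S100a8 (-0.026 to 0.082), Fpr1 (-0.067 to 0.085), Mpo (-0.045 to 0.050), Camp (-0.052 to 0.10), Pglyrp1 (-0.17 to 0.004), Cd177 (-0.10 to 0.11), Ms4a3 (-0.009 to 0.21) and Trem1 (-0.003 to 0.27). Of all probes 1 was called; the count was 3 with variance trend and robust estimation, 3 with slide as a fixed block, 0 with body weight as a covariate (limma, 3488 at an unadjusted p below 0.05) and 1 to 2 with an array left out. The share of higher probes at an unadjusted p below 0.05 was 63.3%, against 23.7% with median scaling, 41.6% with quantile normalization and 42.2% with normexp, and the median of all probes was -0.03 with median scaling, against 0.07 with the 75th percentile. Of members at that p, 3 were higher and 2 lower; median scaling gave 2 and 5, slide as a fixed block 1 and 0, and each array left out 2 to 3 and 1 to 4, a count added after seeing the data. The replicate block left 0 members and 1 probe called, with 4 members higher and 2 lower at an unadjusted p below 0.05. Same-numbered animals correlated between -0.139 and 0.176, and 0 of 5 best with their own number. With 5 animals per group this check cannot settle whether the numbers pair animals. The correlation of Ltf with Camp turned to 0.207 with median scaling and 0.312 within slides and ranged from -0.255 to 0.53 with an array left out; that of Elane with Mpo turned to -0.085 with quantile normalization, and that of S100a8 with S100a9 to -0.241 with normexp and -0.153 within slides.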
